A study of Arabidopsis thaliana with 8 samples.

Results

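The 26 probe sets described here each match a single plastid-encoded gene that serves gene expression or housekeeping in the organelle, among 22746 probe sets measured in imbibed Arabidopsis thaliana seeds. They were chosen by annotation, from genes whose symbol begins with rps, rpl, rpo, mat, clp, acc, ycf, ccs or cem, with no filter on signal. They comprise 4 subunits of the plastid RNA polymerase (rpoA, rpoB, rpoC1 and rpoC2), 15 ribosomal proteins and 7 other genes (matK, clpP, accD, ycf3, ycf4, cemA and ccsA). Of the ribosomal proteins, 8 belong to the small subunit (rps2, rps3, rps4, rps14, rps15, rps16, rps18 and rps19) and 7 to the large subunit (rpl14, rpl16, rpl20, rpl22, rpl32, rpl33 and rpl36). Another 7 plastid probe sets with such symbols (rps7, rps12 on 2 probe sets, rpl2, rpl23, ycf1 and ycf2) list several genes and were left out, as were 6 probe sets with several genes that include a mitochondrial ribosomal protein gene.

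Seeds were imbibed for 24 h in 4 groups of 2 arrays each: 35S-GSH1 at 4 °C, 35S-GSH1 at 22 °C, Col-0 at 4 °C and Col-0 at 22 °C. Col-0 (Columbia) is the wild type and the background of 35S-GSH1, which carries GSH1, the gene of the first enzyme of glutathione synthesis, under the broadly active cauliflower mosaic virus 35S promoter. The labels do not say how many transgenic lines 35S-GSH1 stands for or whether the 2 arrays of a group came from separate seed lots, so the p-values measure the spread between these arrays, which may be technical. No probe set of the table is paired with GSH1, whose level was not analysed here. At 24 h, cold and the progress of imbibition cannot be told apart, because each temperature was sampled at the same single time.

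The plastid keeps a small genome of its own. Its genes are transcribed by a bacterial-type polymerase, whose core subunits are the products of rpoA, rpoB, rpoC1 and rpoC2, and by nuclear-encoded phage-type polymerases, which are known for transcribing the rpoB operon and several other housekeeping genes early in development. The transcripts are spliced with the help of the maturase encoded by matK, and are translated on bacterial-type ribosomes built from plastid-encoded and nuclear-encoded proteins. In a germinating seed this machinery is known to be rebuilt before photosynthesis genes reach their full activity. The remaining genes encode a proteolytic subunit of the Clp protease (clpP), a subunit of the acetyl-CoA carboxylase of fatty acid synthesis (accD), factors of photosystem I assembly (ycf3 and ycf4), a factor that attaches haem to c-type cytochromes (ccsA) and a protein of the inner envelope (cemA).

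Values per array below are the deposited intensities on a linear scale. Differences and their standard errors (SE) are on the scale log2(intensity + 1) after quantile normalisation, and p-values are from limma with Benjamini-Hochberg adjustment over the 13648 probe sets that passed a filter on low values, with a threshold of 0.05. All 26 plastid probe sets passed that filter, which lay at an intensity of about 6.26. Median intensity per array over all probe sets was 12.3 to 16.2, replicate arrays correlated at 0.962 to 0.972 across probe sets, and arrays of different groups at 0.940 to 0.980. The oleosin gene OLEO3, of the oil bodies of seeds, read 489 to 735.9 on the 8 arrays and was the only tested gene of a list of 14 seed storage and oil body genes. Intensities of different probe sets are not compared as amounts of transcript, since probes differ in how strongly they bind.

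Transcripts of the polymerase subunits rpoC1 and rpoC2, of the maturase matK and of the ribosomal proteins rps2, rps4 and rps19 were more abundant in seeds imbibed at 4 °C than at 22 °C, while rps16 was less abundant. Averaged over both genotypes, 7 of the 26 genes (26.9%) passed the test, 6 higher and 1 lower at 4 °C, in a comparison where 16.4% of all probe sets tested passed, 8.65% higher and 7.74% lower. The median difference was 0.82 over the 4 polymerase genes, 0.24 over the 15 ribosomal protein genes and −0.043 over the 7 others, against 0.0056 over all probe sets tested. Without replicate 2 of 35S-GSH1 at 22 °C the ribosomal median was 0.13. Genes above 0 numbered 16 of 26 (50.7% of all probe sets tested were above 0). On normalised values, 2 of the 26 genes, rps2 and rpoC1, had all 4 cold arrays above all 4 warm arrays (10.4% of all probe sets tested) and rps16 had all 4 below (10.3%). Within each genotype taken alone, 6 genes had their cold arrays above their warm ones in both genotypes and 1 had them below (13.4% of all probe sets tested in either direction).

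Among the polymerase genes, rpoC1, which encodes the β′ subunit, read 74.6 and 76.5 in 35S-GSH1 seeds at 4 °C and 38.6 and 28.5 in 35S-GSH1 seeds at 22 °C. In Col-0 seeds it read 139.4 and 89.6 at 4 °C and 53.3 and 49.7 at 22 °C. All 4 arrays at 4 °C lay above all 4 at 22 °C, and rpoC1 rose by 0.98 (SE 0.17, adjusted p = 0.00145, limma), or 1.98-fold. The transcript of rpoC2, which encodes the β″ subunit, read 22.5 and 21.8 at 4 °C against 6.0 and 15.3 at 22 °C in 35S-GSH1 seeds, and 71.1 and 39.4 at 4 °C against 22.0 and 22.0 at 22 °C in Col-0 seeds. The temperatures did not overlap within either genotype, and rpoC2 rose by 1.06 (SE 0.29, adjusted p = 0.0245, limma). Its size was 0.63 with a pseudocount of 16 and 0.70 without replicate 1 of 35S-GSH1 at 22 °C. That array, at 6.0, read under the filter level of about 6.26. The rpoC2 difference did not pass without the filter or without the intensity trend. The call of rpoC2 was lost without either 35S-GSH1 array at 4 °C, either Col-0 array at 22 °C, replicate 1 of 35S-GSH1 at 22 °C or replicate 1 of Col-0 at 4 °C, with adjusted p of up to 0.112, while that of rpoC1 held without any one array (at most 0.00968).

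The α subunit gene rpoA did not pass the test. It read 160.7 and 83.4 at 4 °C and 98.2 and 43.6 at 22 °C in 35S-GSH1 seeds, and 238.5 and 142.8 at 4 °C and 126.2 and 95.5 at 22 °C in Col-0 seeds. The temperatures overlapped in 35S-GSH1 seeds and were apart in Col-0 seeds, replicate 1 read higher than replicate 2 in every group, and the difference was 0.66 (SE 0.25, adjusted p = 0.0891, limma). It passed on the deposited scale (adjusted p = 0.0369) and without replicate 2 of 35S-GSH1 at 4 °C (0.0408), replicate 1 of 35S-GSH1 at 22 °C (0.0225) or replicate 2 of Col-0 at 4 °C (0.0499). For rpoB, which encodes the β subunit, the values were 6.8 and 10 at 4 °C against 12.2 and 12.6 at 22 °C in 35S-GSH1 seeds, and 8.8 and 8.9 at 4 °C against 11.1 and 9.2 at 22 °C in Col-0 seeds. These readings stood close to the filter on low values, and the difference was −0.43 (SE 0.35, adjusted p = 0.449, limma).

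Of the 15 ribosomal protein genes, 4 passed the test, all of the small subunit, and 11 lay above 0 (16.4% and 50.7% of all probe sets tested). The ribosomal protein gene rps19 read 256.3 and 174.6 at 4 °C against 102.1 and 77.7 at 22 °C in 35S-GSH1 seeds, and 338.6 and 206.1 at 4 °C against 153.0 and 233.1 at 22 °C in Col-0 seeds. The temperatures were apart in 35S-GSH1 seeds and overlapped in Col-0 seeds, and rps19 rose by 0.78 (SE 0.19, adjusted p = 0.0108, limma). For rps2, the values were 125.5 and 125.2 at 4 °C against 77.2 and 48.5 at 22 °C in 35S-GSH1 seeds, and 137.6 and 132.5 at 4 °C against 95.9 and 104.3 at 22 °C in Col-0 seeds. All 4 cold arrays lay above all 4 warm ones, and rps2 rose by 0.61 (SE 0.16, adjusted p = 0.016, limma).

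The product of rps4 is among the proteins that bind ribosomal RNA first as the small subunit assembles, as known from bacteria. Its transcript read 127.9 and 117.9 at 4 °C against 83.4 and 71.5 at 22 °C in 35S-GSH1 seeds, and 296.4 and 212.8 at 4 °C against 131.8 and 174.6 at 22 °C in Col-0 seeds. Within each genotype the temperatures did not overlap, and rps4 rose by 0.59 (SE 0.15, adjusted p = 0.0137, limma). The only called gene in the other direction was rps16, which read 11.2 and 8.7 at 4 °C against 16.6 and 14.8 at 22 °C in 35S-GSH1 seeds, and 9.2 and 8.6 at 4 °C against 21.6 and 18.2 at 22 °C in Col-0 seeds. Every cold array lay below every warm one, and rps16 fell by 0.95 on the log2 scale (SE 0.27, adjusted p = 0.0285, limma). Its readings too stood close to the filter on low values, and with a pseudocount of 16 the difference was −0.46. The call was lost on the deposited scale (adjusted p = 0.0585), without the filter (0.0984), and without any single array except replicate 2 of either Col-0 group (up to 0.0836).

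Leaving out single arrays also ended the other ribosomal calls. Without replicate 2 of 35S-GSH1 at 22 °C the adjusted p was 0.0542 for rps19, 0.0703 for rps2 and 0.0568 for rps4, and without replicate 1 of Col-0 at 22 °C it was 0.0559, 0.0547 and 0.0597 in the same order. The rps2 call was also lost without replicate 2 of 35S-GSH1 at 4 °C (0.0558), and the rps4 call without replicate 1 of Col-0 at 4 °C (0.0618).

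None of the 7 large-subunit genes passed the test, although all 7 lay above 0 (16.4% and 50.7% of all probe sets tested). Their differences ran from 0.00095 for rpl22 to 0.46 for rpl36, with a median of 0.24. For rpl33, the values were 218.4 and 202.5 at 4 °C and 232.3 and 233.7 at 22 °C in 35S-GSH1 seeds, and 238.6 and 297.7 at 4 °C and 250.3 and 121.0 at 22 °C in Col-0 seeds. A single low array, replicate 2 of Col-0 at 22 °C, set the sign of its difference, which was 0.19 (SE 0.18, adjusted p = 0.54, limma) with that array and −0.054 without it. Among the uncalled small-subunit genes, the differences ran from −0.20 for rps15 to 0.48 for rps3 (adjusted p = 0.116, limma).

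The maturase gene matK had the largest difference of the 26. It read 242.9 and 189.7 at 4 °C against 122.1 and 58.7 at 22 °C in 35S-GSH1 seeds, and 489.9 and 382.2 at 4 °C against 175.2 and 209.9 at 22 °C in Col-0 seeds. The temperatures were apart in each genotype, and matK rose by 1.19 (SE 0.19, adjusted p = 0.000882, limma), or 2.27-fold. The protease gene clpP, with 1898.8 and 1530.6 at 4 °C against 1147.8 and 1016.3 at 22 °C in 35S-GSH1 seeds and 3409.6 and 2217.7 at 4 °C against 2104.2 and 2635.8 at 22 °C in Col-0 seeds, just missed the threshold. Its temperatures were apart in 35S-GSH1 seeds and overlapped in Col-0 seeds, and its difference was 0.37 (SE 0.12, adjusted p = 0.0518, limma). The clpP difference passed with a pseudocount of 16, the filter at the 60th percentile, robust priors or replicate number in the fit. A threshold of 0.1 also let it pass. Without replicate 2 of Col-0 at 22 °C or replicate 2 of Col-0 at 4 °C clpP passed (adjusted p = 0.0177 and 0.0352). The other 5 genes lay below 0 and did not pass, from −0.76 for ycf3 (SE 0.30, adjusted p = 0.104) to −0.020 for ccsA. For accD the 95% interval of the difference was −0.58 to 0.50.

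**Figure D1:**
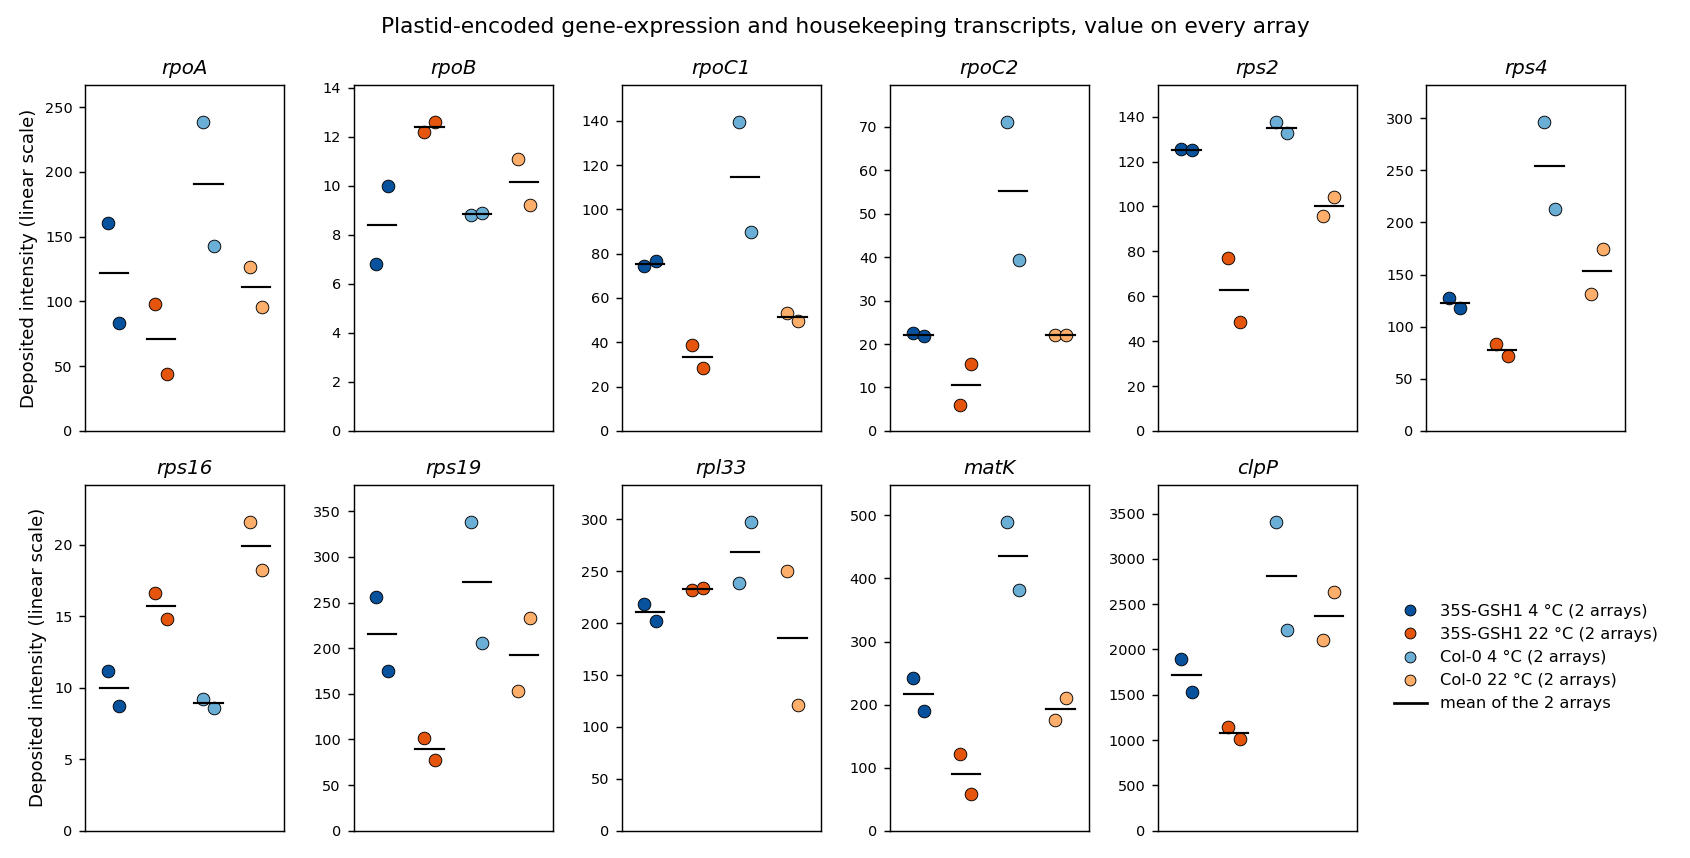
Deposited intensity (linear scale, each panel with its own axis from 0) of 11 plastid-encoded genes on the 8 arrays, with the groups in the order 35S-GSH1 4 °C, 35S-GSH1 22 °C, Col-0 4 °C and Col-0 22 °C. Points are arrays and bars are the mean of 2 arrays. The cold arrays of rpoC1 (74.6 to 139.4) lie above the warm ones (28.5 to 53.3), and those of rps16 lie below.

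**Figure D2:**
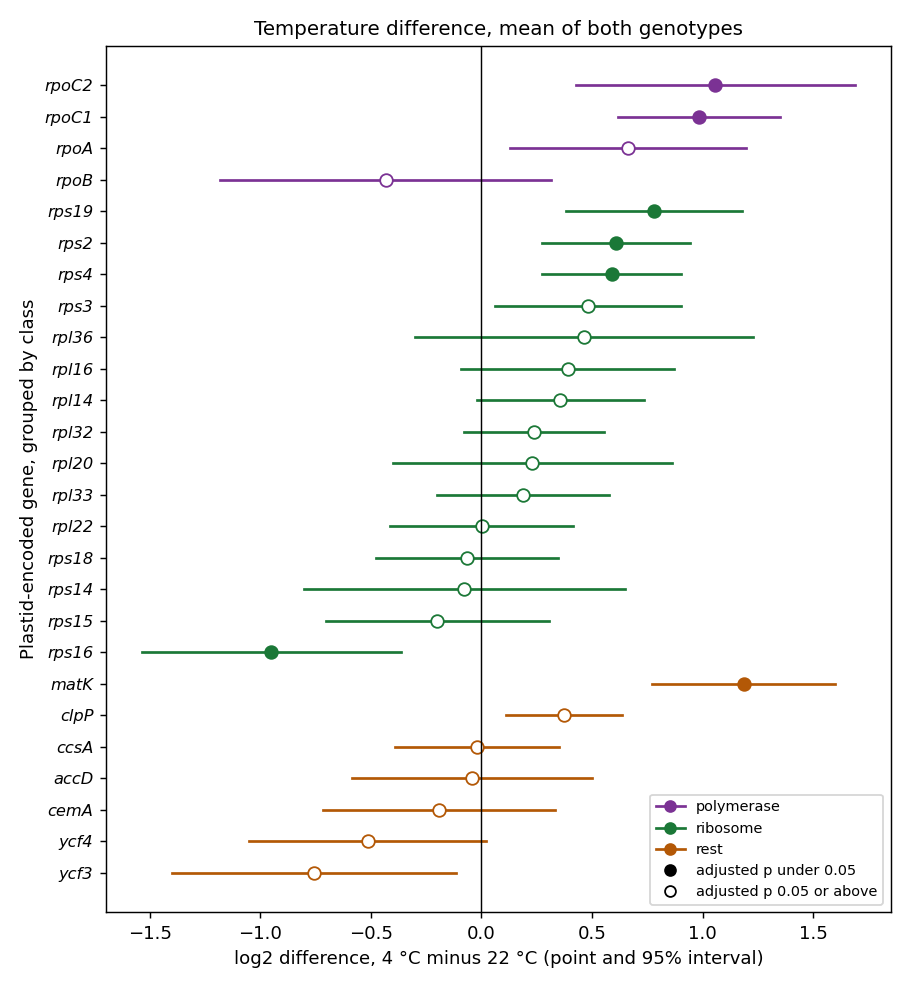
Temperature difference of each of the 26 genes, 4 °C minus 22 °C averaged over both genotypes, in log2 units, with its 95% interval. Filled points passed an adjusted p of 0.05 in limma. The 7 filled points are rpoC2, rpoC1, rps19, rps2, rps4 and matK to the right of 0 and rps16 to the left.

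Tested within one genotype, fewer genes passed. In 35S-GSH1 seeds 4 of 26 passed (5.58% of all probe sets tested, 2.8% higher at 4 °C), namely matK (1.24, adjusted p = 0.0172), rps19 (1.14, adjusted p = 0.0215), rpoC1 (0.99, adjusted p = 0.0296) and rps2 (0.88, adjusted p = 0.0318), all higher at 4 °C. In Col-0 seeds 2 of 26 passed (6.98% of all probe sets tested, 3.68% higher at 4 °C), matK (1.13, adjusted p = 0.0226) and rpoC1 (0.98, adjusted p = 0.0258), both higher at 4 °C. Leaving out any one array of the genotype tested gave 0 to 2 calls in 35S-GSH1 seeds and 0 or 1 in Col-0 seeds, some of them of other genes (rpoC2, and in Col-0 rpl33 or ycf3). The genotypes were not shown to differ in their response to temperature, since 0 of 26 genes and 0% of all probe sets tested passed the test of the interaction. For rps19, called in 35S-GSH1 seeds only, the interaction was 0.72 with a 95% interval of −0.078 to 1.52. At an unadjusted p under 0.05 the interaction held 2 genes, rpl33 and rpl32, against 3.32% of all probe sets tested.

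Position along the plastid genome was not used to choose the genes. In RefSeq's gene order rps2, rpoC2, rpoC1 and rpoB are neighbours. The first 3 of these genes rose at 4 °C, while rpoB, the last in that row and the first to be transcribed in its operon, had the difference of −0.43 given above. In the ribosomal protein cluster that runs over rpoA, rpl36, rpl14, rpl16, rps3, rpl22 and rps19, all 7 differences were above 0, from 0.00095 to 0.78, and 1 passed. Of all probe sets tested, 50.7% lay above 0 and 16.4% passed. Of the other neighbours, matK rose and the adjacent rps16 fell, and rps4 rose next to ycf3 at −0.76. In the remaining runs no gene passed: ycf4 and cemA stood at −0.51 and −0.19, rpl33, rps18 and rpl20 at 0.19, −0.065 and 0.23, and rpl32 and ccsA at 0.24 and −0.020.

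In 35S-GSH1 seeds most of these transcripts read lower than in Col-0 seeds, at both temperatures. At 22 °C, 22 of the 26 differences were below 0 (49.6% of all probe sets tested), with a median of −0.64, and 14 genes had both 35S-GSH1 arrays below both Col-0 arrays (16.6% of all probe sets tested). At 4 °C, 20 of 26 were below 0 (49.9%), with a median of −0.31, and 9 had both 35S-GSH1 arrays below both Col-0 arrays (16.1%). Tested at a single temperature, 0 of 26 genes and 0% of all probe sets passed by limma. At an unadjusted p under 0.05 there were 11 genes at 22 °C (5.71% of all probe sets tested) and 6 at 4 °C (3.22%).

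In whole seeds, fewer cells rich in plastids and less transcript per cell cannot be told apart. At 22 °C, clpP had the smallest p of all 13648 probe sets, with a difference of −1.13 (unadjusted p = 1.29e-05, adjusted p = 0.176, limma). At 4 °C, rps4 had a difference of −1.07 (unadjusted p = 0.000152, adjusted p = 1, limma), and a plastid photosynthesis gene had the same p to the digits given, the smallest in that comparison.

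Averaging the genotype difference over both temperatures, a contrast added after the values had been seen, called clpP and rps4 lower in 35S-GSH1 seeds. Only 3 of the 13648 probe sets passed (0.022%), all lower in 35S-GSH1 and all plastid-encoded, the last being atpE of the ATP synthase. From the values above, clpP stood at 1016.3 to 1898.8 on the 4 arrays of 35S-GSH1 seeds and at 2104.2 to 3409.6 on the 4 arrays of Col-0 seeds, and the genotypes did not overlap. It fell by 0.93 on the log2 scale (SE 0.12, adjusted p = 0.032, limma), or 1.91-fold.

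For rps4 the range was 71.5 to 127.9 in 35S-GSH1 seeds and 131.8 to 296.4 in Col-0 seeds, again with no overlap. It fell by 1.01 on the log2 scale (SE 0.15, adjusted p = 0.0457, limma), or 2.01-fold, and atpE fell by 0.68 (SE 0.10, adjusted p = 0.0457). The size of these differences hardly moved when single arrays were left out, from −1.05 to −0.82 for clpP and from −1.11 to −0.91 for rps4. Both calls were nevertheless lost without either 35S-GSH1 array at 4 °C, either 35S-GSH1 array at 22 °C, replicate 1 of Col-0 at 4 °C or replicate 2 of Col-0 at 22 °C, with adjusted p of up to 0.245 for clpP and 0.265 for rps4. They were also lost on the deposited scale (0.0779 for clpP and 0.0698 for rps4), without the filter (0.143 for each) and without the intensity trend (0.774 for each). With arrays centred on their medians the call of rps4 was lost and that of clpP held.

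The remaining genes did not pass in that contrast. The maturase gene matK had a difference of −1.09 (SE 0.19, adjusted p = 0.118), and the polymerase genes rpoC2, rpoA and rpoC1 had differences of −1.17, −0.71 and −0.58, while rpoB stood at 0.12. The cytochrome assembly gene ccsA read 120.1 and 107.9 at 4 °C and 123.5 and 69.5 at 22 °C in 35S-GSH1 seeds, and 166.4 and 138.6 at 4 °C and 189.1 and 143.7 at 22 °C in Col-0 seeds. Its genotypes did not overlap, and its difference was −0.61 (SE 0.17, adjusted p = 0.755, limma). On normalised values 4 of the 26 genes, rpoC2, rps4, clpP and ccsA, had every 35S-GSH1 array below every Col-0 array (0.857% of all probe sets tested), and 8 had no overlap within either temperature (3.03%).

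**Figure D3:**
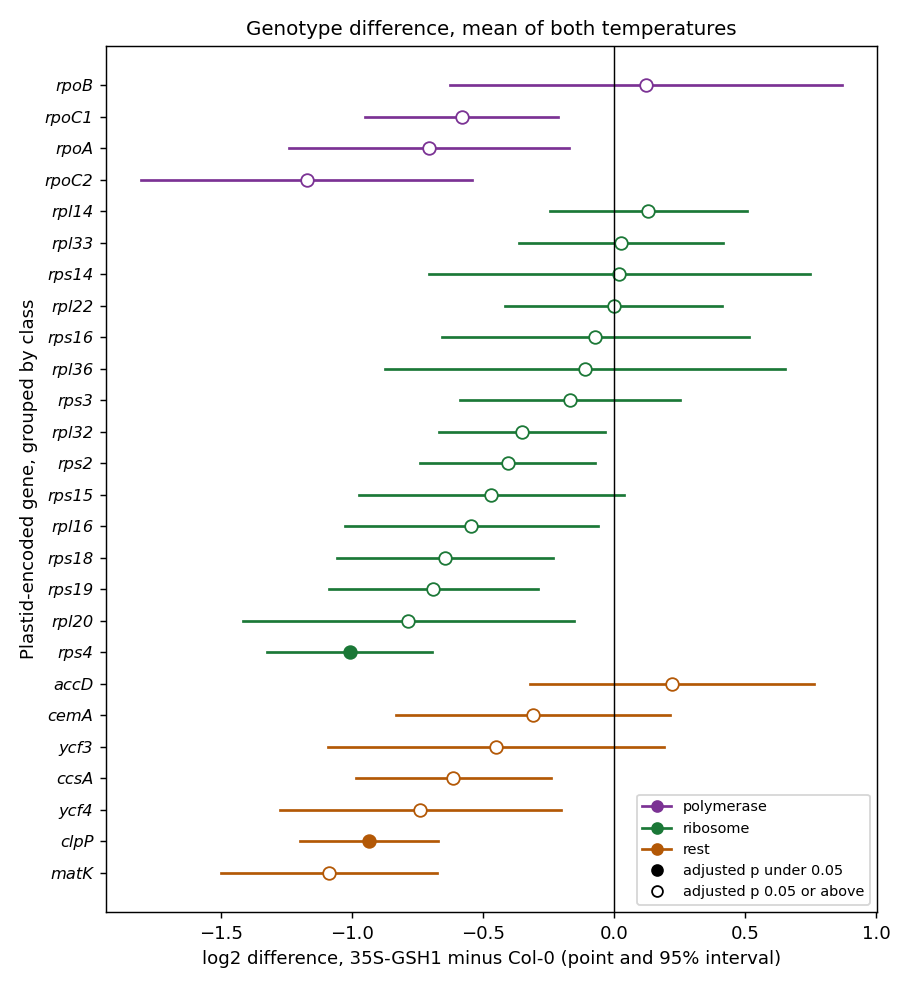
Genotype difference of each of the 26 genes, 35S-GSH1 minus Col-0 averaged over both temperatures, in log2 units, with its 95% interval. Filled points passed an adjusted p of 0.05 in limma. Of the 26 points 20 lie left of 0, and the filled ones are rps4 and clpP.

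Over both temperatures, 20 of 26 differences were below 0 (49% of all probe sets tested). The median was −0.46, against 0.0042 over all probe sets tested, and by class it was −0.64 for the polymerase, −0.35 for the ribosome and −0.61 for the others. The ribosomal proteins spanned the class from rps4 at −1.01 through rpl20 at −0.78, rps19 at −0.69 and rps18 at −0.65 to rpl14 at 0.13. At an unadjusted p under 0.05 there were 14 of 26 genes (5.11% of all probe sets tested). Listing all probe sets by p in this contrast, the first 5 were plastid-encoded (clpP, rps4, atpE, ndhD and psbI), and among the first 100 there were 18 plastid-encoded probe sets, 8 of them from the 26, all lower in 35S-GSH1. The table held 65 tested plastid-encoded probe sets in all.

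Plastid photosynthesis genes and the genes of the mitochondrion, the other organelle with a genome, give the setting for these values. Of 39 plastid photosynthesis genes tested, 32 were below 0 in 35S-GSH1 seeds with a median of −0.37, and 1 passed, atpE. In that genotype contrast, averaged over both temperatures, 49% of all probe sets tested were below 0 and 0.022% passed. For temperature their median was 0.023 and 4 passed (10.3%, against 16.4% of all probe sets tested), all higher at 4 °C (ndhI, ndhD, psaB and psaI). The 23 mitochondrial probe sets had a median of −0.016 for genotype, with 14 below 0 and 0 passing. That average joined opposite shifts. At 22 °C, 21 of the 23 were below 0 in 35S-GSH1 seeds (median −0.24, 49.6% of all probe sets tested below 0). At 4 °C, 19 were above 0 (median 0.17, 50.1% of all probe sets tested above 0). For temperature the mitochondrial median was −0.30, with 4 passing (17.4%), all lower at 4 °C. The difference between these groups of genes was not tested.

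The median deviation of each class from its genes' mean over the 8 arrays showed how the groups were placed. The polymerase stood at −0.022 and 0.054 in 35S-GSH1 seeds at 4 °C, at −0.36 and −0.67 in 35S-GSH1 seeds at 22 °C, at 1.07 and 0.39 in Col-0 seeds at 4 °C and at 0.065 and −0.089 in Col-0 seeds at 22 °C. Cold 35S-GSH1 seeds thus overlapped warm Col-0 seeds, with cold Col-0 seeds above and warm 35S-GSH1 seeds below. The ribosome class stood at −0.066 and 0.00025, at −0.19 and −0.55, at 0.46 and 0.054 and at 0.038 and 0.22 in the same groups, so that both warm 35S-GSH1 arrays were lowest and the Col-0 groups overlapped. The other 7 genes stood at −0.20 and −0.23, at 0.024 and −0.25, at 0.50 and −0.12 and at 0.58 and 0.16, with overlap between the temperatures in each genotype.

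Replicate 1 of Col-0 at 4 °C was the highest array of the polymerase and ribosome classes. It exceeded replicate 2 in 18 of the 26 genes, by a median of 0.52, while 49.0% of all probe sets tested were higher in replicate 1. Summed over the 26 probe sets, the deposited intensity was 4139.7 and 3526.5 in 35S-GSH1 seeds at 4 °C, 2779.4 and 2296.7 in 35S-GSH1 seeds at 22 °C, 6829.4 and 4742.7 in Col-0 seeds at 4 °C and 4371.3 and 4782.7 in Col-0 seeds at 22 °C. All 4 sums of 35S-GSH1 seeds lay below all 4 of Col-0 seeds. However, clpP made up 41.3% to 55.1% of each sum, a share of signal and not of transcript amount. Without clpP the genotypes overlapped on these sums, at 1280.4 to 2240.9 in 35S-GSH1 seeds and 2146.9 to 3419.8 in Col-0 seeds. The overlap rested on replicate 1 of 35S-GSH1 at 4 °C (2240.9) against replicate 2 of Col-0 at 22 °C (2146.9). The sums were not normalised, and the trimmed mean over all probe sets was 79.0 on the first array and 71.8 on the second.

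**Figure D4:**
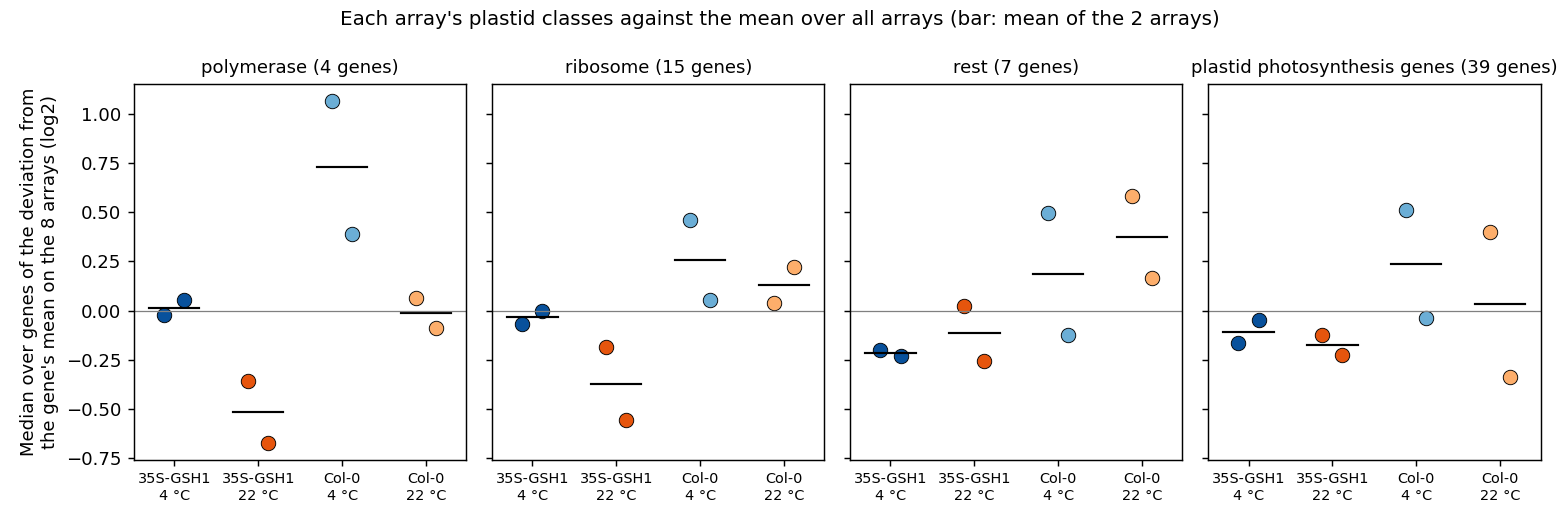
Median over genes of the deviation from each gene's mean over the 8 arrays (log2), by class and group, with the 39 tested plastid photosynthesis genes beside them. Points are arrays and bars are the mean of 2 arrays. The polymerase runs from −0.67 on a warm 35S-GSH1 array to 1.07 on a cold Col-0 array.

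Nuclear genes that work with these transcripts were sparsely annotated on the array. Of 82 genes in 6 lists, 14 were tested: 1 of 8 sigma factors and phage-type polymerases, 0 of 12 polymerase-associated proteins, 6 of 30 plastid ribosomal proteins, 5 of 14 Clp subunits, 0 of 4 acetyl-CoA carboxylase subunits and 2 of 14 RNA splicing and processing factors. None of the 14 passed for temperature or for genotype, where 16.4% and 0.022% of all probe sets tested passed. The smallest adjusted p for temperature belonged to the nuclear-encoded plastid ribosomal protein genes RPS10 (−0.41, adjusted p = 0.0828) and RPL34 (−0.35, adjusted p = 0.0832). The phage-type polymerase gene RPOTmp, whose product serves mitochondria and plastids, had a temperature difference of −0.11 (adjusted p = 0.914) and a genotype difference of 1.06 (SE 0.49, adjusted p = 0.913). In Col-0 seeds it read 3.1 and 23.9 at 4 °C and 6.2 and 16.8 at 22 °C, against 18.1 to 22.4 in 35S-GSH1 seeds. Replicate 1 of each Col-0 group thus lay under the filter level of about 6.26.

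The Clp partners of clpP with the smallest p for temperature were CLPR3 (−0.17, adjusted p = 0.421) and CLPP4 (−0.17, adjusted p = 0.463). The splicing factor genes CAF1 and CFM3A, which act on plastid introns, had temperature differences of 0.15 (adjusted p = 0.643) and 0.18 (adjusted p = 0.737). Among 17 nuclear-encoded photosynthesis genes 2 were tested, of which LHCB4.1, an antenna protein gene of photosystem II, rose by 0.53 at 4 °C (adjusted p = 0.00663) and LHCB4.2 had a difference of 0.17 (adjusted p = 0.499).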

How the data were processed

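Total RNA of seeds was labelled as biotinylated cRNA and hybridised to Affymetrix arrays, per the labels' protocols. The authors deposited 1 linear intensity per probe set and array; the submitters' processing notes name GCOS, and neither its version nor its summary settings are stated there. Array trimmed means differed by up to 9.71% from their median over arrays. Plastid mRNAs mostly lack stable poly(A) tails, and how fully the labelling captured them was not tested.

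Here linear intensities were quantile-normalised and then put on the scale log2(intensity + 1). Probe sets with a mean under the 40th percentile were left out (13648 of 22746 kept). The tests used limma 3.58.1 (R 4.3.3) with an intensity trend, fitted to 8 arrays and 4 groups (4 residual and 9.93 prior degrees of freedom), two-sided. The script was tested on simulated data. Genes were named by GEO's platform annotation (13513 probe sets with 1 gene, 503 with several, 8730 with none) and RefSeq's TAIR10.1 gene table. Its start coordinates were used only to put the plastid genes in order along the genome. The 26 members and all gene lists were chosen with earlier results of these data known. Values on every array are given for genes passing any contrast and, in each class, the 2 with the highest mean and the 2 with the smallest temperature p; rpoB and ccsA were added after their values were seen. Alternatives changed the normalisation, pseudocount, filter, moderation, threshold and arrays. Replicate numbers were not taken to pair the samples, since not every correlation of same-numbered deviations exceeded 0.1 (0.0506 to 0.143 over 6 pairs of groups). Precision is limited by the number of arrays, since the half-width of the 95% interval had a median of 0.52 between 2 groups and 0.37 in the averaged contrasts.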

Additional observations from a re-analysis of the deposited data

How the results depend on the processing

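With 2 arrays a group, counts of calls moved while class medians kept within the spread between replicates. For temperature averaged over both genotypes the count of 7 was 3 without the intensity trend and 2 to 11 when single arrays were left out (2 without replicate 1 of Col-0 at 22 °C, 3 without replicate 2 of 35S-GSH1 at 22 °C, 11 without replicate 2 of Col-0 at 4 °C); with the replicate block it was 10, with clpP, rpoA and rps3 added. The calls of matK and rpoC1 held under all 18 alternatives, with adjusted p of at most 0.0322 and 0.0249, and those of the other 5 were each lost under some. In 35S-GSH1 the count of 4 was 2 without the filter, 0 without the trend, 7 with the replicate block and 0 to 5 with single arrays left out; in Col-0 the count of 2 was 1 without the filter, 1 without the trend, 4 with the replicate block, 4 at a threshold of 0.1 and 0 to 3 with single arrays left out. Whole-table temperature calls numbered 1153 without the trend and 3020 with the block, against 2237. Genotype at 22 °C gave 1 call, clpP, with a pseudocount of 16 and with the block. The averaged genotype contrast, with 2 calls, gave 0 on the deposited scale, 1 with arrays centred on their medians, 0 without the filter, 0 without the trend, 3 with the block and 0 to 3 with single arrays left out. On the deposited scale the median of all probe sets shifted by 0.11 for temperature, and 68.9% of calls were higher at 4 °C, against 52.7%. Signs turned for rpl33 (temperature −0.054 without replicate 2 of Col-0 at 22 °C, and up to 0.43 without others; genotype −0.073 without replicate 1 of Col-0 at 4 °C and −0.21 without replicate 2 of Col-0 at 22 °C, and up to 0.27), rpoB (genotype −0.072 without replicate 2 of 35S-GSH1 at 4 °C, and up to 0.32) and rps16 (genotype 0.012 without replicate 2 of Col-0 at 4 °C, and down to −0.15); the cause was not tested. The temperature median of the 26 genes, 0.23, was 0.12 without replicate 1 of Col-0 at 4 °C and 0.13 without replicate 2 of 35S-GSH1 at 22 °C, and that of the 7 other genes lay between −0.31 and 0.18.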
